A study of Oryza sativa with 16 samples.

Results

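The 16 genes described here were read at under 1 FPKM at stages 1, 2 and 4 and at 3 FPKM or more at stage 7 in both d1 and wild type (WT) rice shoot apical meristems. FPKM is a level scaled for transcript length and for the number of fragments in the library. Of the 34302 rows of the authors' table, 19 met these limits, and 3 identifiers were left out by the rule that set the group, which left 16. The 3 rows left out had 5.99 to 43.1 FPKM in d1 and 4.66 to 49.8 FPKM in WT at stage 7. The genes were selected on their FPKM in all 8 columns, so their high value at stage 7 is given as a description and no test of it was made.

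RNA came from d1 plants, which carry the d1-1 allele of RGA1, and from WT plants, in 16 libraries over 8 groups. The d1 groups and the WT groups were each sampled at stages labelled 1, 2, 4 and 7, with 2 libraries per group, and the labels do not define the stage numbers. All plants were 3 months old and had grown in the same greenhouse conditions for 100 days, and the labels name no other allele or agent. The authors' table holds 1 combined FPKM value per gene and group, so values below have no SD, and the depth behind them is unknown. The table does not name the unit; FPKM was inferred from the tools in the submitters' processing notes and from the values. The mutant is represented by a single allele, and the transcript of RGA1 was not examined because neither the table nor the gene list used pairs its identifier with the name.

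A shoot apical meristem is the dome of dividing cells at the tip of the shoot. At flowering in rice it becomes an inflorescence meristem that forms branches, the branches form spikelets, and each spikelet forms a floret with its organs. Many genes of the later steps are silent in the younger tip. RGA1 encodes the alpha subunit of the heterotrimeric G protein, a relay that carries signals from the cell surface into the cell, and plants that lack it are dwarfed. In bulk tissue, a gene read in more cells and a gene with more RNA per cell cannot be told apart.

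The identifiers of the 16 genes could not be paired with names: 0 of the 16 were found in the RefSeq gene list used (assembly ASM3414082v1). Of the identifiers of the whole table (34302 rows), only 1 was found there, so the 0 is not particular to these genes. The genes are given by identifier, with the chromosome as the identifier's form gives it, and no function is assigned to any of them. They lie on 8 of the 12 chromosomes, with 4 on chromosome 6, 3 each on chromosomes 4 and 7, 2 on chromosome 3, and 1 each on chromosomes 1, 5, 8 and 10.

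At stage 7 these were genes of low level. The 16 values ran from 3.06 to 9.13 FPKM in d1 with a median of 4.16 FPKM, and from 3.01 to 11.8 FPKM in WT with a median of 4.27 FPKM. Their sum was 76.8 FPKM in d1 and 77.6 FPKM in WT, which is 0.012% of the d1 column total and 0.0125% of the WT column total. Among genes with at least 1 FPKM in the same column, they stood between percentiles 17.6 and 41.2 in d1 and between percentiles 16.8 and 47.7 in WT. In both columns 8 of the 16 lay under 5 FPKM, 4 reached 5 FPKM in both, and 0 reached 10 FPKM in both.

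**Figure D1:**
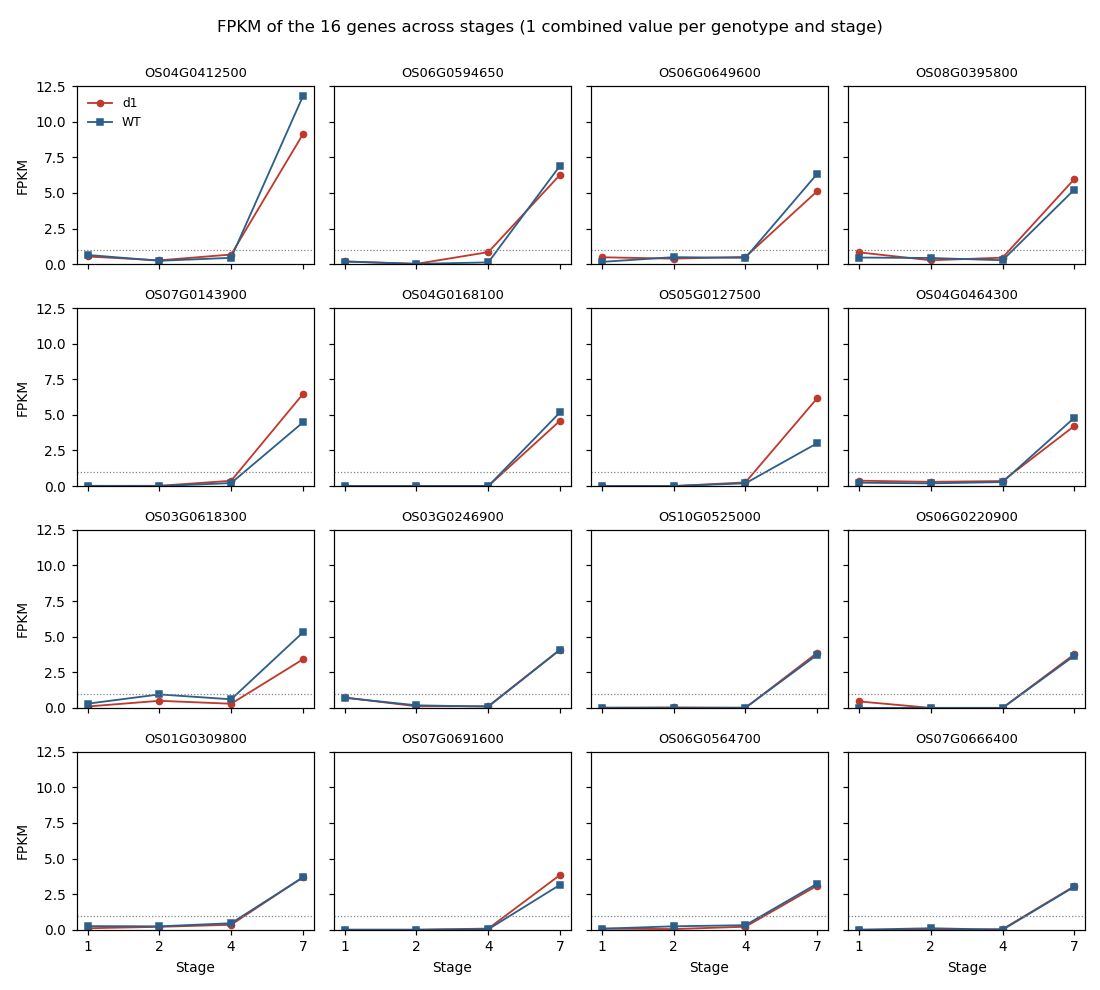
Level of each of the 16 genes (FPKM, linear axis) at stages 1, 2, 4 and 7 in d1 (red circles) and WT (blue squares), 1 combined value per point, with the 1 FPKM limit dotted. Every panel is under the dotted line until stage 4, and the stage 7 values end between 3.01 and 11.8 FPKM.

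The most abundant gene was OS04G0412500 (chromosome 4). It had 0.542, 0.27, 0.679 and 9.13 FPKM in d1 at stages 1, 2, 4 and 7, and 0.65, 0.241, 0.446 and 11.8 FPKM in WT. Its stage 7 level was 13.4 times the highest earlier value in d1 and 18.2 times in WT, so a low signal was present at all earlier stages in both genotypes.

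OS06G0594650 (chromosome 6) had 0.197, 0.0237, 0.847 and 6.28 FPKM in d1 across the 4 stages, and 0.186, 0.0231, 0.127 and 6.92 FPKM in WT. Its stage 4 value in d1 was the highest d1 value of any of the 16 genes before stage 7, while its stage 4 value in WT was below its own stage 1 value. OS06G0649600 (chromosome 6) had 0.486, 0.39, 0.511 and 5.13 FPKM in d1, and 0.163, 0.494, 0.447 and 6.35 FPKM in WT. OS08G0395800 (chromosome 8) had 0.832, 0.275, 0.46 and 5.98 FPKM in d1, and 0.466, 0.436, 0.278 and 5.24 FPKM in WT. In both genotypes these last 2 genes showed no zero and no steady climb before stage 7.

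OS04G0168100 (chromosome 4) was the 1 gene of the 16 that the table lists at 0 in all 6 earlier columns. At stage 7 it had 4.59 FPKM in d1 and 5.18 FPKM in WT, and no fold can be given against values of 0. OS10G0525000 (chromosome 10) came close to the same pattern. In d1 it was listed at 0 at stages 1 and 4, at 0.0358 FPKM at stage 2 and at 3.87 FPKM at stage 7, and in WT at 0.0181, 0, 0.0153 and 3.73 FPKM. Its stage 7 level was 108 times its highest earlier value in d1 and 207 times in WT, the highest ratios among the genes for which a ratio could be formed. Ratios against values this small carry an unknown counting error.

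OS07G0666400 (chromosome 7) was at 0 in d1 at stages 1 and 2, at 0.0391 FPKM at stage 4 and at 3.06 FPKM at stage 7. In WT it was at 0 at stages 1 and 4, at 0.105 FPKM at stage 2 and at 3.02 FPKM at stage 7, just inside the lower limit. OS06G0220900 (chromosome 6) was listed at 0 in WT at stages 1, 2 and 4, and had 3.66 FPKM there at stage 7. In d1 it had 0.454 FPKM at stage 1, was listed at 0 at stages 2 and 4, and had 3.77 FPKM at stage 7. Its 2 stage 7 values were close to each other although its d1 stage 1 value had no counterpart in WT.

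Levels at stage 4 were compared with those at stages 1 and 2, still under 1 FPKM. Stage 4 was above both stage 1 and stage 2 in 9 of the 16 genes in d1, in 6 in WT and in 5 in both genotypes. Among all 9414 rows under 1 FPKM before stage 7 and above 0 in some column, 13.8% had that order in both genotypes. The limits cap these values, and no test was made. The reverse order, with stage 4 below both earlier stages in both genotypes, was found in 0 of the 16 genes and in 7.15% of those rows. Those rows needed no minimum at stage 7, and a row at 0 at stages 1, 2 and 4 can show neither order. The sets are thus unlike, and the shares are given as a description only.

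The 5 genes with that order were OS07G0143900, OS05G0127500, OS07G0691600, OS01G0309800 and OS06G0564700. OS07G0143900 (chromosome 7) had 0.0127, 0.0184, 0.369 and 6.46 FPKM in d1, and 0.0132, 0, 0.208 and 4.47 FPKM in WT. OS05G0127500 (chromosome 5) was listed at 0 at stages 1 and 2 in both genotypes. It then had 0.255 and 6.17 FPKM in d1 at stages 4 and 7, and 0.191 and 3.01 FPKM in WT. For both genes the d1 value was the higher one at stage 4 and again at stage 7.

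OS07G0691600 (chromosome 7) was likewise listed at 0 at stages 1 and 2 in both genotypes, with 0.081 and 3.85 FPKM in d1 at stages 4 and 7 and 0.0353 and 3.16 FPKM in WT. OS01G0309800 (chromosome 1) had 0.103, 0.206, 0.349 and 3.69 FPKM in d1, and 0.253, 0.239, 0.457 and 3.67 FPKM in WT. OS06G0564700 (chromosome 6) had 0.0791, 0.0472, 0.212 and 3.1 FPKM in d1, and 0.0704, 0.242, 0.319 and 3.24 FPKM in WT. In these last 2 genes WT was the higher genotype at stage 4.

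Of the remaining genes, OS03G0246900 (chromosome 3) was highest before stage 7 at the first stage. It had 0.732, 0.112, 0.119 and 4.1 FPKM in d1, and 0.708, 0.181, 0.0892 and 4.08 FPKM in WT. The stage 1 value was thus above those of stages 2 and 4 in both genotypes, and the ratio of stage 7 to the highest earlier value was only 5.6 in d1 and 5.76 in WT. OS04G0464300 (chromosome 4) stayed level, with 0.376, 0.294, 0.35 and 4.22 FPKM in d1 and 0.234, 0.189, 0.28 and 4.8 FPKM in WT.

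Taking the 16 genes at each earlier stage, the median level was 0.101 FPKM in d1 and 0.117 FPKM in WT at stage 1. It was 0.0415 FPKM in d1 and 0.143 FPKM in WT at stage 2, and 0.274 FPKM in d1 and 0.2 FPKM in WT at stage 4. At stage 4 the d1 value was the higher one in 10 genes and the lower one in 4. At stage 1 it was higher in 7 and lower in 5, and at stage 2 higher in 5 and lower in 7. Zeros were listed for 5 genes in d1 and 5 in WT at stage 1, for 5 in d1 and 6 in WT at stage 2, and for 3 in each genotype at stage 4. In d1 the highest of these values was 0.847 FPKM, and in WT it was 0.947 FPKM, so "on only at stage 7" describes a position against the limits and not an absence of signal before it.

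**Figure D2:**
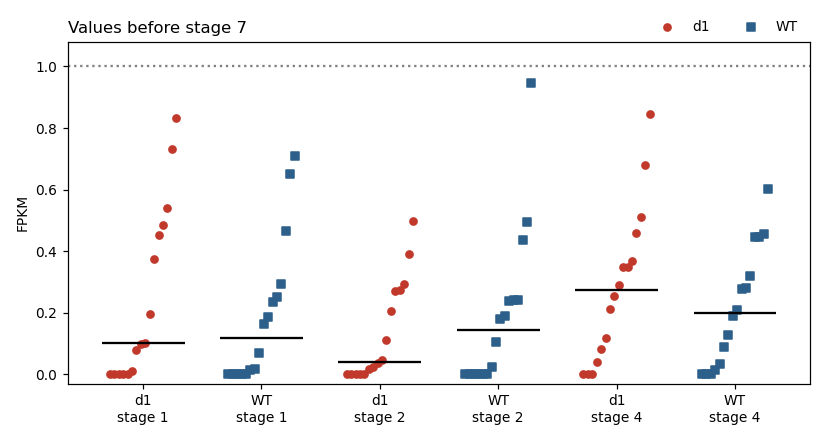
Level (FPKM, linear axis) of the 16 genes before stage 7, with d1 (red circles) left of WT (blue squares) at stages 1, 2 and 4, points sorted within each column, a black bar at the median and the 1 FPKM limit dotted. The medians lie between 0.0415 and 0.274 FPKM, and stage 4 has the highest median in both genotypes.

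Some genes stood near the limits. The lowest stage 7 values inside were 3.01 FPKM for OS05G0127500 and 3.02 FPKM for OS07G0666400, both in WT. Just outside were OS11G0667000, with 2.94 FPKM in d1 and 3.53 FPKM in WT, and OS01G0924200, with 4.1 FPKM in d1 and 2.92 FPKM in WT. On the other limit, OS03G0618300 reached 0.947 FPKM and OS06G0594650 reached 0.847 FPKM before stage 7 and were kept. OS01G0944700 at 1.03 FPKM and OS05G0500950 at 1.04 FPKM were not.

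The same limits were then applied to each stage in turn. A row with at least 3 FPKM in both genotypes at 1 stage and under 1 FPKM at the other 3 was found 0 times for stage 1, stage 2 and stage 4, and 19 times for stage 7. In single genotypes such rows were found at every stage. In the d1 columns alone there were 19, 35, 8 and 52 rows at stages 1, 2, 4 and 7, and in the WT columns alone 2, 13, 5 and 57. Loss at stage 7 was rare by the same limits, with 2 rows at 3 FPKM or more in all 6 earlier columns and under 1 FPKM in both stage 7 columns. Of the 15228 rows with at least 3 FPKM in both stage 7 columns, 14055 had that level in all 8 columns. These counts come from 1 value per group and were not tested.

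**Figure D3:**
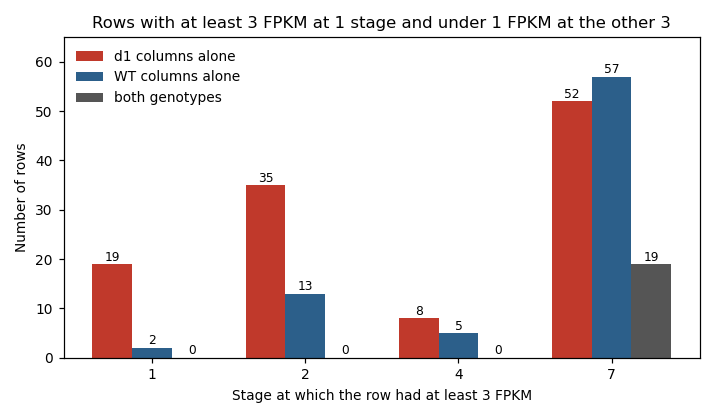
Number of rows (linear axis from 0) with at least 3 FPKM at 1 stage and under 1 FPKM at the other 3, by that stage, in the d1 columns alone (red), the WT columns alone (blue) and both genotypes (grey). Rows shared by both genotypes occur at stage 7 only, where there are 19, including the 3 that were left out.

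The next comparison asked whether the stage 7 level of these genes differed between d1 and WT. Their selection did not use the difference itself, but it asked for at least 3 FPKM in both columns, which limits how far the genotypes can lie apart. On the log2(FPKM + 1) scale, which understates the change of low genes, the d1 minus WT difference ran from -0.51 to 0.84 with a median of 0.01. It was above 0 in 9 genes and below 0 in 7. A difference of at least 1 was found in 0 of the 16 genes in either direction, where, of the 19757 genes tested, 0.592% reached it upward and 1.53% downward. Among the 15228 rows with at least 3 FPKM in both stage 7 columns the shares were 0.322% upward and 0.729% downward. A gene was tested if 2 or more columns had 1 FPKM or above, and each of the 16 passed that filter through stage 7 alone. Of the 16, 11 (68.8%) lay within 0.25 of 0, against 69.6% of all genes tested. Among the 15228 rows that met the same stage 7 limit the share was 74.1%. The median absolute difference was 0.15 for the 16 genes, 0.16 for all genes tested and 0.14 for those 15228 rows. Of those rows, 4730 had a stage 7 mean within the range of the 16 genes. Among these 4730 rows, 69.9% lay within 0.25, the median absolute difference was 0.16, and 44.4% were higher in d1. The stage 7 columns were used to select the genes, so these figures describe the 16 genes and show neither likeness to nor difference from other genes.

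**Figure D4:**
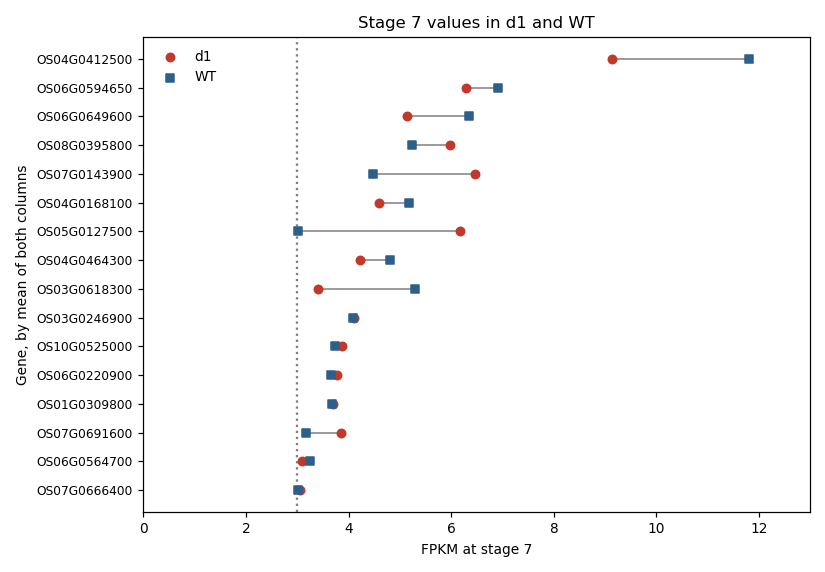
Stage 7 level (FPKM, linear axis) in d1 (red circles) and WT (blue squares) for the 16 genes in order of their mean, with a grey line joining the 2 values of a gene and the 3 FPKM limit dotted. The longest lines belong to OS05G0127500 (6.17 in d1, 3.01 in WT) and OS04G0412500 (9.13 in d1, 11.8 in WT), and 7 genes are among the 8 highest of both columns.

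The widest relative difference was that of OS05G0127500, with 6.17 FPKM in d1 and 3.01 FPKM in WT, a ratio of 2.05 and a log2 difference of 0.84. The difference reached 1.01 when 0.1 was added before the logarithm in place of 1. OS07G0143900 followed with a log2 difference of 0.45, then OS07G0691600 with 0.22 and OS08G0395800 with 0.16. The lower values in d1 were led by OS03G0618300 at -0.51, OS04G0412500 at -0.34, OS06G0649600 at -0.26, and by OS04G0464300 and OS04G0168100, both at -0.15. At OS03G0246900, OS01G0309800 and OS07G0666400 the d1 value was 1.01, 1 and 1.01 times the WT value. With 1 value per group none of these differences could be set against a spread between libraries.

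Across the 16 genes, the log2 levels at stage 7 in d1 and WT correlated with Pearson's r of 0.71 and Spearman's rho of 0.54. This is a description over genes, which are not replicates, and all of them were selected to lie above the same minimum. Of the 8 highest genes in d1, 7 were also among the 8 highest in WT.

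A fit across all genes was possible only over the 4 stages together. The limma fit with stage as a block compared d1 with WT over the 8 columns, and its SE rests on how the difference varies between stages. Of the 16 genes 0 passed an adjusted p of 0.05, and 1 had an unadjusted p under 0.05 (limma). An unadjusted p under 0.05 was found for 4674 of the 19757 genes tested (limma), and nothing about the group is concluded from the 1 such gene. Over all genes tested, 0.157% were called higher and 0.086% lower in d1. The adjusted p of the 16 genes ran from 0.12 to 0.98 (limma, Benjamini-Hochberg). The fit uses the columns on which the genes were selected, and their values at 3 of the 4 stages were held under 1 FPKM by that selection. The difference at those stages was thus capped, a difference at stage 7 alone widens the SE, and the count of 0 is a description that does not show the genotypes to be alike.

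The 1 gene with an unadjusted p under 0.05 was OS03G0618300 (chromosome 3). It had 0.0979, 0.498, 0.292 and 3.41 FPKM in d1, and 0.295, 0.947, 0.602 and 5.3 FPKM in WT. It was lower in d1 at 4 of 4 stages, the 1 gene among the 16 with the same sign throughout, where 17.8% of tested genes were higher and 15.4% lower at all 4. Its mean difference was -0.36 ± 0.1 (log2, moderated SE), and with an adjusted p of 0.12 (limma) it did not pass. The fit used the columns on which this gene was selected, and the gene passed the filter through stage 7 alone. These figures are thus a description and no support for a genotype difference. Over the alternative settings the adjusted p ran from 0.11 to 0.35 (limma). This gene also had the highest single reading before stage 7 of the 16, and its stage 7 level was 6.85 times the highest earlier one in d1 and 5.59 times in WT.

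The position of the genes was examined through the rows next to them, since adjacent or overlapping genes can share reads. From stage 4 to stage 7 the log2 level of the 16 genes was higher by 1.76 to 2.59 in d1 and by 1.68 to 3.15 in WT, of which the limits alone required 1. The 2 rows on each side gave 64 neighbours, of which 0 were among the 16. Of these, 24 were under 1 FPKM in all 8 columns, and 37 passed the filter. Among the 37, 2 were higher at stage 7 by at least 1 in both genotypes and 0 were lower, where 1.28% of all tested genes were higher and 0.567% lower in both. The median change of the 37 was 0.13 in d1 and 0.03 in WT, against 0 in d1 and -0.01 in WT over all tested genes.

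Both of these neighbours were near 0 before stage 7 and passed the filter only through the stage 7 columns in which they were high. Their count beside the share of all tested genes is therefore a description, and no test was made. OS06G0594600, next to OS06G0594650, had 0.0328, 0.136, 0.0905 and 2.11 FPKM in d1, and at most 0.033 FPKM at the earlier stages and 1.14 FPKM at stage 7 in WT. OS04G0464400, next to OS04G0464300, was listed at 0 at 5 of the 6 earlier readings, and had 2.6 FPKM in d1 and 1.78 FPKM in WT at stage 7. Both fell short of 3 FPKM and so were not counted among the 16. Whether these pairs share reads was not tested.

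**Figure D5:**
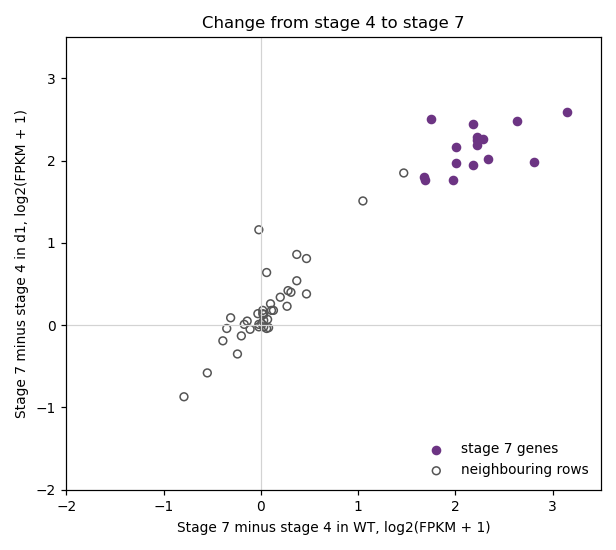
Stage 7 minus stage 4 on the log2(FPKM + 1) scale in WT (horizontal) and d1 (vertical) for the 16 genes (filled purple) and their 37 tested neighbouring rows (open grey). The 16 genes lie at 1.76 or more in d1 and 1.68 or more in WT, and 2 neighbours lie above 1 in both.

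Gene lists for late floral development were set beside the group. They were written down by identifier from general knowledge with earlier results of these data known, and neither the table nor the RefSeq list pairs those identifiers with names, so members are not named. Of the spikelet and floret development list 8 of 13 identifiers were in the table, of the meiosis, anther wall and tapetum list 11 of 15, of the surface, wax and silica list 3 of 4, and of the floral MADS-box list 1 of 16. In each list 0 of these were among the 16 genes. The 16 are a small part of the 34302 rows, so lists this short would seldom hold one of them. The count of 0 thus tells nothing about the group. The 1 floral MADS-box identifier in the table had 16.8 FPKM or more in all 8 columns, so it could not meet the limits. Identifiers missing from the table, and the 3 rows left out by the rule, are not covered by these counts. By a log2 change of at least 1 from stage 4 to stage 7 in both genotypes, 1 of the 8 tested spikelet and floret identifiers was higher and 0 were lower. That identifier had 15.7, 13.3, 6.23 and 87.9 FPKM in d1, and 20.4, 10.03, 2.91 and 103 FPKM in WT, so it was expressed throughout. Of the tested identifiers of the meiosis list (7), the surface list (2) and the MADS-box list (1), 0 changed by that much in both genotypes. Over all genes tested 1.28% were higher and 0.567% lower by that much in both. Lists this short are too small to be set against such shares, and the counts are a description.

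Leaf transcripts were checked because a dissected tip can carry leaf tissue. Of 7 photosynthesis identifiers written down in the same way, 3 were in the table, and none of the 3 was at 0 in any column. Their summed level was 49.3, 19.6, 14.7 and 9.44 FPKM in d1 at stages 1, 2, 4 and 7, and 13.3, 31.1, 5.63 and 16.7 FPKM in WT. In d1 the sum was lowest at stage 7, and in WT the stage 7 sum was above stages 1 and 4 and below stage 2. Its part in the levels of the 16 genes was not tested. The labelled tissue had no list of its own and was represented by 2 identifiers of the spikelet and floret development list. These 2 had not been set down beforehand as its markers. They were written down as KNOX homeobox genes, which keep meristem cells undifferentiated, and neither was at 0 in any column. One had 354, 441, 478 and 251 FPKM in d1 at stages 1, 2, 4 and 7, and 354, 468, 476 and 234 FPKM in WT. The other had 151, 203, 294 and 179 FPKM in d1, and 164, 227, 317 and 163 FPKM in WT. Both were thus lower at stage 7 than at stage 4 in both genotypes. The log2 differences were -0.92 and -0.71 in d1 and -1.02 and -0.96 in WT, over the step at which the 16 genes were higher. The other tested identifiers of the spikelet and floret list moved in either direction over that step. Their log2 differences ran from -0.7 to 3.62 in d1 and from -0.33 to 4.73 in WT. The 2 KNOX identifiers thus do not stand for the whole list. The part of the 2 KNOX identifiers in the levels of the 16 genes was not tested.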

How the data were processed

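Total RNA of d1 and WT rice meristems was sequenced by the authors in 16 libraries. Per the submitters' processing notes the reads were handled with Cuffdiff, Cufflinks, TopHat2, Trimmomatic and FastQC on build IRGSP-1.0, for which no versions are listed. The deposited FPKM values hold 1 column per genotype and stage, in which the authors had combined the 2 libraries; the scaling between columns was not given in the sources used here. Depth is unknown, no count test was possible, and values shared between near-identical or overlapping genes may have been split by the estimation.

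Groups came from the sample titles. Column totals lay between 621238 and 670519 FPKM. Several identifiers were joined in 54 rows, none of them a member. Members were rows under 1 FPKM in 6 columns and at least 3 FPKM in both stage 7 columns. Values were analysed as log2(FPKM + 1) over the 19757 genes that had 1 FPKM or above in 2 or more columns. The genotype fit was limma 3.58.1 (R 4.3.3; eBayes with trend, stage as block, Benjamini-Hochberg; 3 residual and 2.54 prior degrees of freedom), tested on simulated data. The simulation placed equal differences at all stages in genes of higher mean level than any member, so it does not cover the members. Differences at single stages were counted at 1 (log2) with no test. Alternatives were other limits, a pseudocount of 0.1, median and quantile scaling, no filter, and each stage left out.

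The members and lists were chosen with earlier results of these data known. The rule for named genes took the 8 most abundant members, the 4 most changed in each direction and those nearest the limits. The other members, the rows beside members and the rows of single genotypes named in the text were chosen after their values were seen.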

Additional observations from a re-analysis of the deposited data

How the results depend on the processing

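Membership depended on the limits. With under 0.5 FPKM before stage 7 and at least 5 FPKM at stage 7, 0 genes remained; with under 2 FPKM before stage 7 there were 52, with the limits met by the d1 columns alone 49, and with the WT columns alone 54. With columns scaled to the same median 14 of the 16 were kept, without OS05G0127500 and OS07G0666400. The median d1 minus WT difference at stage 7 was 0.01, and it was 0.03 after median scaling, 0.05 after quantile normalization and -0.34 among members with a mean of at least 10 FPKM, which is 1 gene, so 0 members were higher in d1 there. None of the 16 signs changed under these settings. With a pseudocount of 0.1, 1 member (OS05G0127500) was higher in d1 by at least 1.

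In the limma fit over the 4 stages 0 of the 16 genes passed under each of the 7 alternatives, with 1 under an unadjusted p of 0.05 in 6 of them and 0 without stage 7. Over all genes the fit called 48 genes, against 47 with a pseudocount of 0.1, 7 with no filter and 21 after median scaling. With stage 1, 2, 4 or 7 left out it called 5, 5, 4 and 5. The cause of the lower counts was not tested. No paired analysis was possible because the deposited columns combine the libraries of a group and carry no replicate numbers, and for the same reason no library could be left out. The unknown depth limits each value, most of all those under 1 FPKM.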

Other observations

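Rows that met the limits in 1 genotype alone show what the requirement for both genotypes removed. Beyond the 16 genes and the 3 left out, 33 rows met the limits in the d1 columns alone and 38 in the WT columns alone. Of the 33 rows, 29 were under 3 FPKM in WT at stage 7, and 8 had at least 1 FPKM in an earlier WT column. Of the 38 rows, 14 were under 3 FPKM in d1 at stage 7, and 32 had at least 1 FPKM in an earlier d1 column, 24 of them at stage 4. Each set was selected on low earlier values in its own genotype, which favours higher earlier values in the other, and no test was made.

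Several of the 38 rows had far higher stage 7 values than the 16 genes and were already above 1 FPKM in d1 at stage 4. OS06G0317200 (chromosome 6) had 0.213, 0.252, 7.91 and 177 FPKM in d1, and 0.298, 0.0618, 0.453 and 115 FPKM in WT. OS11G0592200 (chromosome 11) had 1.51, 1.15, 7.63 and 69.4 FPKM in d1, and 0.39, 0.29, 0.469 and 20.1 FPKM in WT. OS03G0407400 (chromosome 3) missed membership by 1 value, with 0.0481, 0.0415, 1.1 and 33 FPKM in d1 and 0.315, 0.122, 0.45 and 35.6 FPKM in WT.

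A few rows were read at stage 7 in 1 genotype only, or far more in 1 than in the other. OS08G0387300 (chromosome 8) had 5.05 FPKM in d1 at stage 7 and was listed at 0 in the other 7 columns. OS05G0405200 (chromosome 5) had 5.83 FPKM in WT at stage 7 and was listed at 0 in the other 7 columns. OS10G0191300 (chromosome 10) had 13.7 FPKM in d1 and 1.12 FPKM in WT at stage 7.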
